A study of Mus musculus with 2 samples.

Results

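The genes described here are 10 mouse genes of the inflammasome and of pyroptosis, the inflammatory form of cell death that inflammasomes set off: the sensor genes Nlrp3, Nlrc4, Aim2 and Nlrp1b, the adaptor gene Pycard, the cofactor gene Nek7, the caspase genes Casp1, Casp4 and Casp8, and the pore-forming gene Gsdmd. They were chosen by name for their roles, with earlier results of these data known. They are 10 of the 21938 protein-coding genes of the GENCODE annotation on chromosomes 1 to 19, X and Y (mm10). H3K79me2, a dimethylated lysine in the core of histone H3, was mapped by ChIP-seq in primary macrophages grown from the bone marrow of C57BL/6J mice, without stimulation. Each library was made from 10 ng of DNA, and 1 control experiment is named for both libraries. The data are 1 group of 2 biological replicates, so no conditions were compared. Both replicates carry the same donor identifier, sex and age are not recorded, and the labels leave unsaid if separate animals or cultures were used.

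An inflammasome is a cytosolic complex in which a sensor that has met its trigger recruits, often through the adaptor ASC, the protease caspase-1. Caspase-1 matures the cytokines IL-1β and IL-18 and, like the lipopolysaccharide-sensing caspase-11, cleaves gasdermin D into a fragment that forms pores in the plasma membrane. Macrophages are the cells in which this pathway is best known. H3K79me2 is deposited by the methyltransferase DOT1L and lies mainly over the 5′ part of transcribed genes.

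Peaks were given in 4 lists: 1 for each replicate alone, 1 for the pooled reads and the replicated list, which the authors derived from both replicates. Replicate 1's list covered 63.5 Mb, replicate 2's 114 Mb, the pooled list 106 Mb and the replicated list 93.2 Mb. Of 15559 replicated peaks, 15202 were identical to a pooled peak in coordinates and fold, so these lists are not independent of each other. Since the files hold peaks without read counts, library depth is unknown, and a base outside all peaks is not shown to lack the modification. In bulk cells, a modification carried by fewer cells and one at a lower level in every cell cannot be told apart. All 12 macrophage marker genes examined, among them Adgre1, Cd68 and Spi1, were marked in all 4 lists by the rule given below. In the replicated list, 0 of 7 T cell, 0 of 6 B cell, 0 of 8 neutrophil, 0 of 6 dendritic cell and 0 of 6 fibroblast markers were marked, and 1 of 6 erythroid and megakaryocyte markers, Pf4, had 717 bp covered. Pf4 had 0 bp in replicate 1's list and 750 bp in replicate 2's. The T cell marker Cd4 was marked in replicate 2's list alone, with 589 bp.

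A block is a run of bases under 1 peak or under touching peaks of a list, and positions are counted along the gene from its outermost annotated 5′ end. Marked genes are those in which a list covered 200 bp or more of the first 3 kb, or of the whole gene if shorter. In the replicated list 9 of the 10 genes were marked, where 30.3% of all coding genes were. The 1 exception was Aim2, whose covered bases began far downstream of its outermost 5′ end. With the pooled list 9 of 10 were again marked (34.3% of all coding genes), and with replicate 2's own list 9 of 10 (35.6%). In replicate 1's own list 8 of 10 were marked (27.2%), with Gsdmd missing besides Aim2. At least 1 covered base lay in 10 of the 10 genes (34.1% of all coding genes), and 10 of 10 were marked when the 5′ end of any annotated coding transcript was allowed (32.7%). No block over these genes also lay under the first 3 kb of another coding gene.

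The share of a gene's length under the replicated list ran from 1.43% in Nlrp1b to 100% in Pycard, with a median of 41.2%. The median over the 7486 coding genes with a covered base was 31.3%. The 10 genes range in length from 4160 bp to 137267 bp, so the share is given beside the number of covered bases. The share is an extent of coverage and not a level of the modification.

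**Figure D1:**
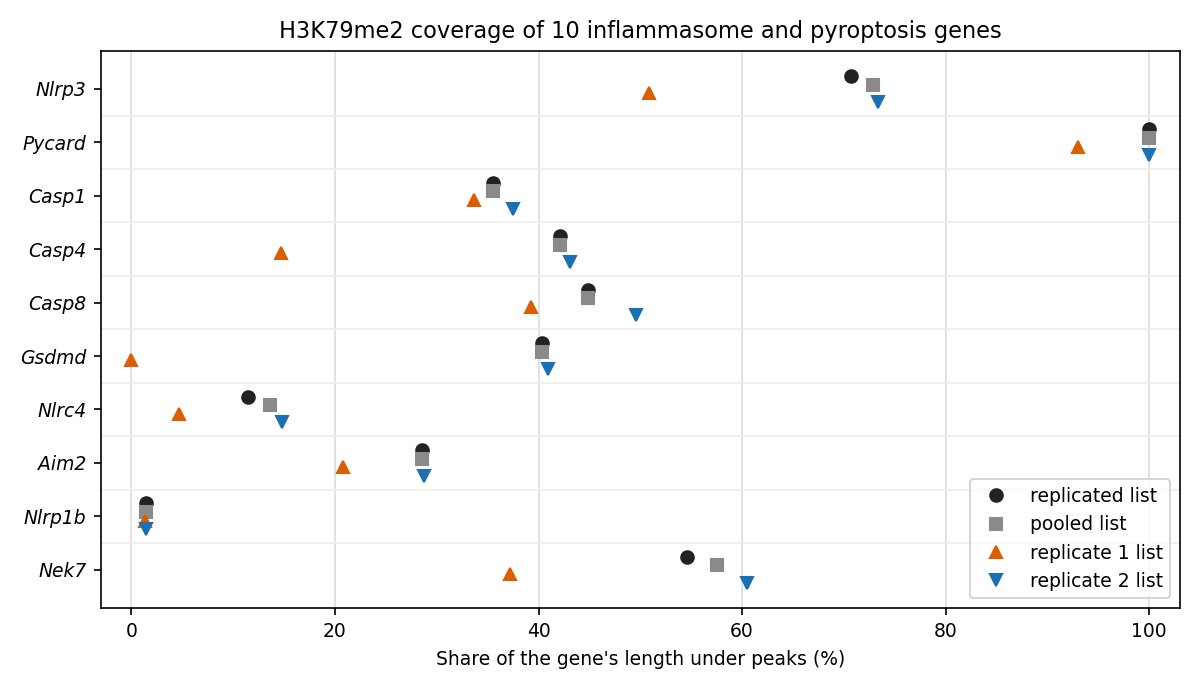
Share of each gene's length under the peaks of the replicated list (circles), the pooled list (squares), replicate 1's list (upward triangles) and replicate 2's list (downward triangles), in percent. Pycard lies at 100% in 3 lists and at 93.0% in replicate 1, Nlrp1b lies near 1.43%, and replicate 1 lies lowest in all 10 genes, at 0 in Gsdmd.

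The sequences before the starts are given for 5 of the genes because the position of the mark turned on which start was used (Nlrp3, Aim2), or because the genes stand at the ends of the range of coverage (Nlrp1b, Pycard) or of CpG content (Nek7). Each run is the 250 bases before a RefSeq start (GRCm38.p6), written 5′ to 3′ on the gene's own strand, and capitals mark CpG dinucleotides. They are chr11:59542436-59542685 on the plus strand for Nlrp3, at the second of its RefSeq starts, chr1:173420354-173420603 on the plus strand for Aim2, chr11:71230734-71230983 on the minus strand for Nlrp1b, chr7:127993868-127994117 on the minus strand for Pycard and chr1:138619758-138620007 on the minus strand for Nek7.
Nlrp3: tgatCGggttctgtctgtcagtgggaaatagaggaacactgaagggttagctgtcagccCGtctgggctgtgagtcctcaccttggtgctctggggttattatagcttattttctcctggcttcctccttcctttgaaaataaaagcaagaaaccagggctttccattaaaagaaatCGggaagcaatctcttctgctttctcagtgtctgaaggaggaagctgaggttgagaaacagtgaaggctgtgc
Aim2: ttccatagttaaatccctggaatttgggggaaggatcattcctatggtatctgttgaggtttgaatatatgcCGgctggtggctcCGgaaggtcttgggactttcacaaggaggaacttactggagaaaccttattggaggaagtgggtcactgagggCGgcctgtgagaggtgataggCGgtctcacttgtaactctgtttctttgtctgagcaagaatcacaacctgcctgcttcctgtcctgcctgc
Nlrp1b: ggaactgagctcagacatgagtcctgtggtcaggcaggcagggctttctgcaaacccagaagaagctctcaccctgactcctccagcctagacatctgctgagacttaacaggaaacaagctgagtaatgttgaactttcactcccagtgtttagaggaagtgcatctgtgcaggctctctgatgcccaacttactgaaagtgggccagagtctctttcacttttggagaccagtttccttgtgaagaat
Pycard: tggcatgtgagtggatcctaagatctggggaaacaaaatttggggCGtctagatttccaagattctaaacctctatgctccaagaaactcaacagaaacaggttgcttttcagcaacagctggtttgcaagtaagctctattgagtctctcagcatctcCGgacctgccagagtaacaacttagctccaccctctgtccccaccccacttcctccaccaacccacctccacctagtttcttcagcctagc
Nek7: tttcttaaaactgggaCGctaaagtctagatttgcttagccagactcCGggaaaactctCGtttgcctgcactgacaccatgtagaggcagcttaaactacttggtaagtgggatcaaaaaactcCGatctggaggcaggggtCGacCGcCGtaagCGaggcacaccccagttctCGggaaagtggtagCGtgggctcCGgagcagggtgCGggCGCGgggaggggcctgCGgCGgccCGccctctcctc

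The runs hold 3 CpG dinucleotides for Nlrp3, 4 for Aim2, 0 for Nlrp1b, 2 for Pycard and 17 for Nek7. Over the whole RefSeq promoters of 300 bases, which reach 50 bases past the start, 12 promoters were matched for 9 of the genes, and there was no entry for Gsdmd. Of these, 11 held between 0 and 5 CpG dinucleotides, and that of Nek7 held 23. Over all 32851 promoters the median was 7, and 43.6% held 5 or fewer. Over the 6517 promoters of marked genes the median was 22, and 8.65% held 5 or fewer.

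The same was seen in the genome around the outermost 5′ ends. The 500 bp to either side were read, and an end counted as CpG-rich if the ratio of observed to expected CpG reached 0.6 and the GC content 50%. By this rule 0 of the 10 genes were CpG-rich, where 44.4% of all coding genes and 79.1% of the 6658 marked genes were. Nek7 lay just outside it, with a ratio of 0.748 at a GC content of 49.2%, and around its RefSeq start, 384 bp further in, it passed with 0.851 and 61.5%. Casp8 was next, at 0.562 and 53.4%, followed by Gsdmd at 0.460 and 57.0%. The other genes lay between 0.0190 in Nlrp1b and 0.302 in Casp1. At their outermost 5′ ends these genes thus lay outside the CpG-rich class that holds most marked genes.

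Short motifs were searched on both strands of the 12 promoters, and a match is a description of letters only. GAGGAAGT, a form of the site of the macrophage factor PU.1, was found in 3 of 12 and in 3.20% of all promoters. Counted from the start, its leftmost base lay at position -44 in Pycard, on the strand opposite to the gene, and on the gene's own strand at -113 in Aim2 and -96 in Nlrp1b. GGANTTTCC, a κB form, was in 1 of 12, at position -122 from the first RefSeq start of Nlrp3, and in 1.25% of all. Other κB forms were not searched, so promoters without this match are not shown to lack a κB site. GGGCGG, the letters of an Sp1 site, was in 3 of 12 (Pycard, Aim2 and Nek7) and in 35.7% of all. No match was found for GAAANNGAA, of the interferon response type, for TGANTCA, the AP-1 form, or for TATAAA, which were in 8.56%, 7.81% and 13.6% of all promoters.

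Nlrp3 encodes the sensor that responds to potassium efflux and many other disturbances of the cell. It lies on the plus strand at chr11:59541568-59566956. The replicated list covered 17944 bp, the pooled list 18505 bp, replicate 1's list 12908 bp and replicate 2's list 18634 bp of its 25389 bp. That is 70.7% of the gene in the replicated list, above the 33.9% median of marked genes, and 50.8% and 73.4% in the replicates. The 3 blocks, of 4216, 10217 and 3511 bp, were separated by only 65 and 132 bp, and ran from 1500 bp after the outermost 5′ end, in intron 2, to 77.4% of the gene's length. Among marked genes the first covered base lay at a median of 377 bp, with quartiles of 166 and 645 bp, so that of Nlrp3 lay late when counted from its outermost start. A further annotated start at 59542686, which is also the RefSeq start whose upstream sequence is given above, lies 1118 bp into the gene, and the first block began 382 bp after it.

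Nlrc4, the adaptor-like sensor that NAIP proteins activate on meeting flagellin or secretion-system rods, lies on the minus strand at chr17:74425438-74459142. Its coverage was 3861 bp in the replicated list, 4604 bp in the pooled list, 1581 bp in replicate 1 and 4992 bp in replicate 2, of 33705 bp. The block began 86 bp after the 5′ end, in exon 1, and ended in intron 1 at 3946 bp, so that 11.5% of the gene was covered. In replicate 1 the first covered base came later, at 1366 bp, and the 2 blocks of 612 and 969 bp lay inside the replicated one. Another annotated coding start, 10936 bp into the gene, had 0 covered bases in the 3 kb after it.

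Aim2 encodes the sensor of DNA in the cytosol. On the plus strand it is annotated over 115162 bp at chr1:173350879-173466040, and its first 3 kb had 0 covered bases in each of the 4 lists. Yet 32916 bp of it lay under the replicated list, 32916 bp under the pooled list, 23927 bp under replicate 1's list and 33064 bp under replicate 2's. The first block, of 21105 bp, began 69030 bp into the gene and was followed by blocks of 4068, 5921 and 1822 bp, the last ending at 103581 bp.

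The first Aim2 block lay at starts inside the gene and not at the outermost one. The RefSeq start at 173420604 lies 69725 bp into the gene and a GENCODE coding start lies at 69719 bp, and both were under the first block, with 3000 of the next 3000 bp covered. In replicate 1 the block began at 69675 bp, which is closer to these starts than the 69030 bp of the replicated list and the 69006 bp of replicate 2. A non-coding start at 68317 bp lay 713 bp before the replicated block. The coding start at 104475 bp lay 894 bp after the last block, and 0 of the 3 kb after it was covered. Cadm3, a coding gene on the other strand that overlaps the annotated 5′ part of Aim2, had 0 covered bases in each list.

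**Figure D2:**
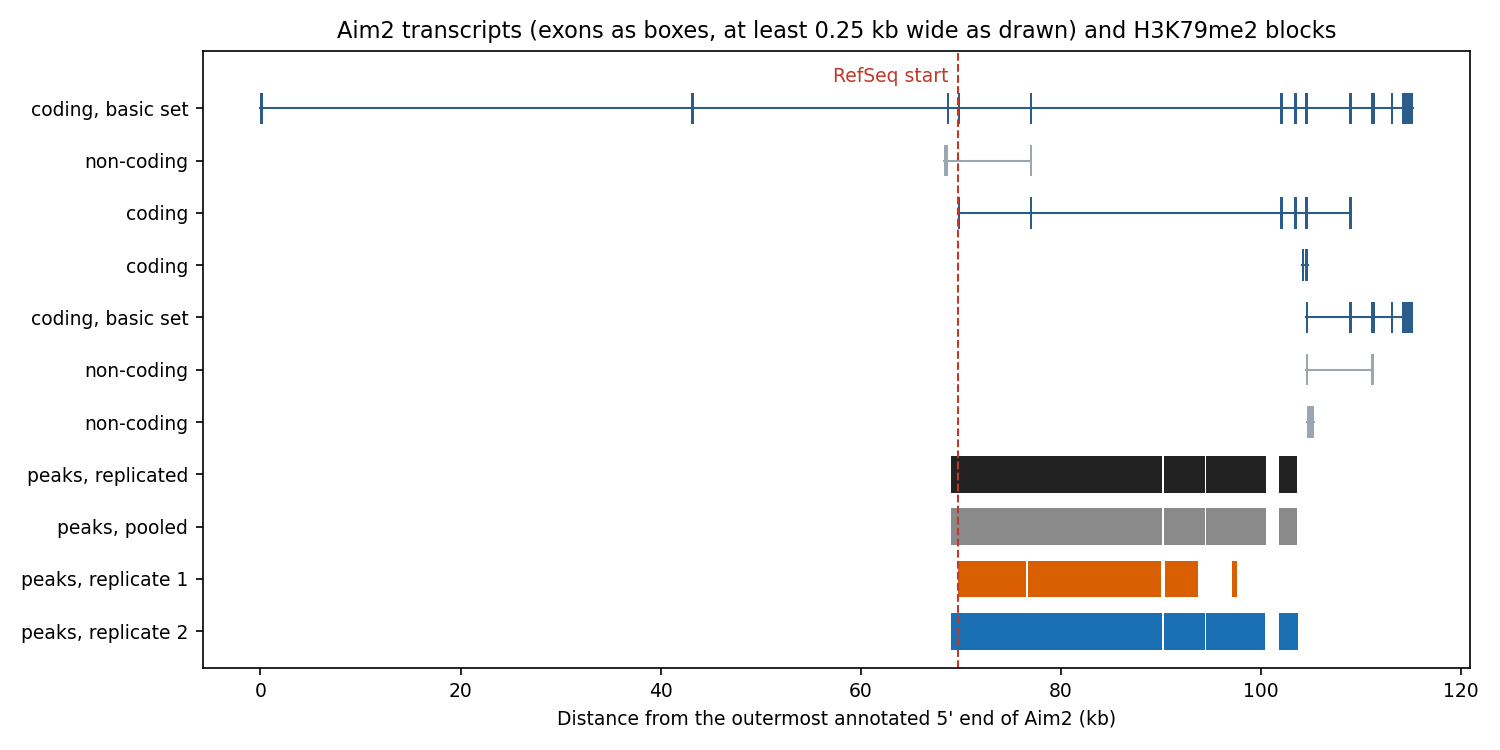
Annotated transcripts of Aim2 (boxes are exons, the smallest widened to be visible, coding transcripts in blue and non-coding ones in grey) above the blocks of the 4 lists, by distance from the outermost annotated 5′ end in kb; the dashed line is the RefSeq start. The blocks of the replicated list begin at 69030 bp, and those of replicate 1 at 69675 bp, beside the RefSeq start at 69725 bp, and none lies near the outermost 5′ end.

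Nlrp1b, whose product is activated when its own N-terminal part is degraded, had the smallest share. It spans 77632 bp on the minus strand at chr11:71153102-71230733. Coverage was 1114 bp in the replicated list, 1114 bp in the pooled list, 1048 bp in replicate 1 and 1111 bp in replicate 2. This small block was among the closest matched between the replicates, with 94.3% of the bases under either list under both. It lay from 383 to 1496 bp after the 5′ end, within intron 1, and reached no further annotated start: those at 2266 and 29277 bp had 0 covered bases in the 3 kb after them. By fold over the control, which is the authors' value and serves here only to rank genes within a list, it stood 5158th of the 6658 marked genes. For this rank, the fold of a gene is the highest of the peaks that touch its first 3 kb. With only peaks at or above the median fold kept, 0 bp of Nlrp1b remained covered. The neighbouring paralog Nlrp1a had 0 covered bases in each list, and the pseudogene Nlrp1c-ps had 356 bp in replicate 2's list and 0 in the replicated one. How alike these genes are in sequence was not measured, and the treatment of reads that fit more than 1 place was not given in the sources used here.

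Pycard encodes ASC, the adaptor that joins sensors to caspase-1. It is a gene of 4160 bp on the minus strand at chr7:127989708-127993867. The replicated, pooled and replicate 2 lists each covered 4160 bp, and replicate 1's list covered 3869 bp. Its whole length was thus covered in 3 of the 4 lists, which only 39 of the 6658 marked genes (0.586%) were in the replicated list. The block ran from 36 bp before the 5′ end to 439 bp past the gene's end, while replicate 1's first block began 228 bp after the start. Gm45205, annotated on the other strand as a transcript still to be experimentally tested, overlaps the 5′ part of Pycard, and peaks carry no strand.

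Nek7 encodes the kinase that binds NLRP3 and is needed for its assembly. It is the longest of the 10 genes, 137267 bp on the minus strand at chr1:138482875-138620141. Coverage was 74925 bp in the replicated list, 78971 bp in the pooled list, 51044 bp in replicate 1 and 83061 bp in replicate 2. The replicated share was 54.6%, in 10 blocks from 953 to 85453 bp, of which the longest measured 19865 bp. From the RefSeq start, the first block began 569 bp downstream. Over the whole gene replicate 1 had 26 blocks, the last ending at 75270 bp, and replicate 2 had 17, the last ending at 115995 bp. Of the covered bases, 99.9% were intronic, against 94.6% of the gene's length. The antisense gene Gm28501 overlaps Nek7, as do Gm37080 and Gm37101, transcripts of its own strand that are still to be experimentally tested, and the peaks do not tell them apart.

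**Figure D3:**
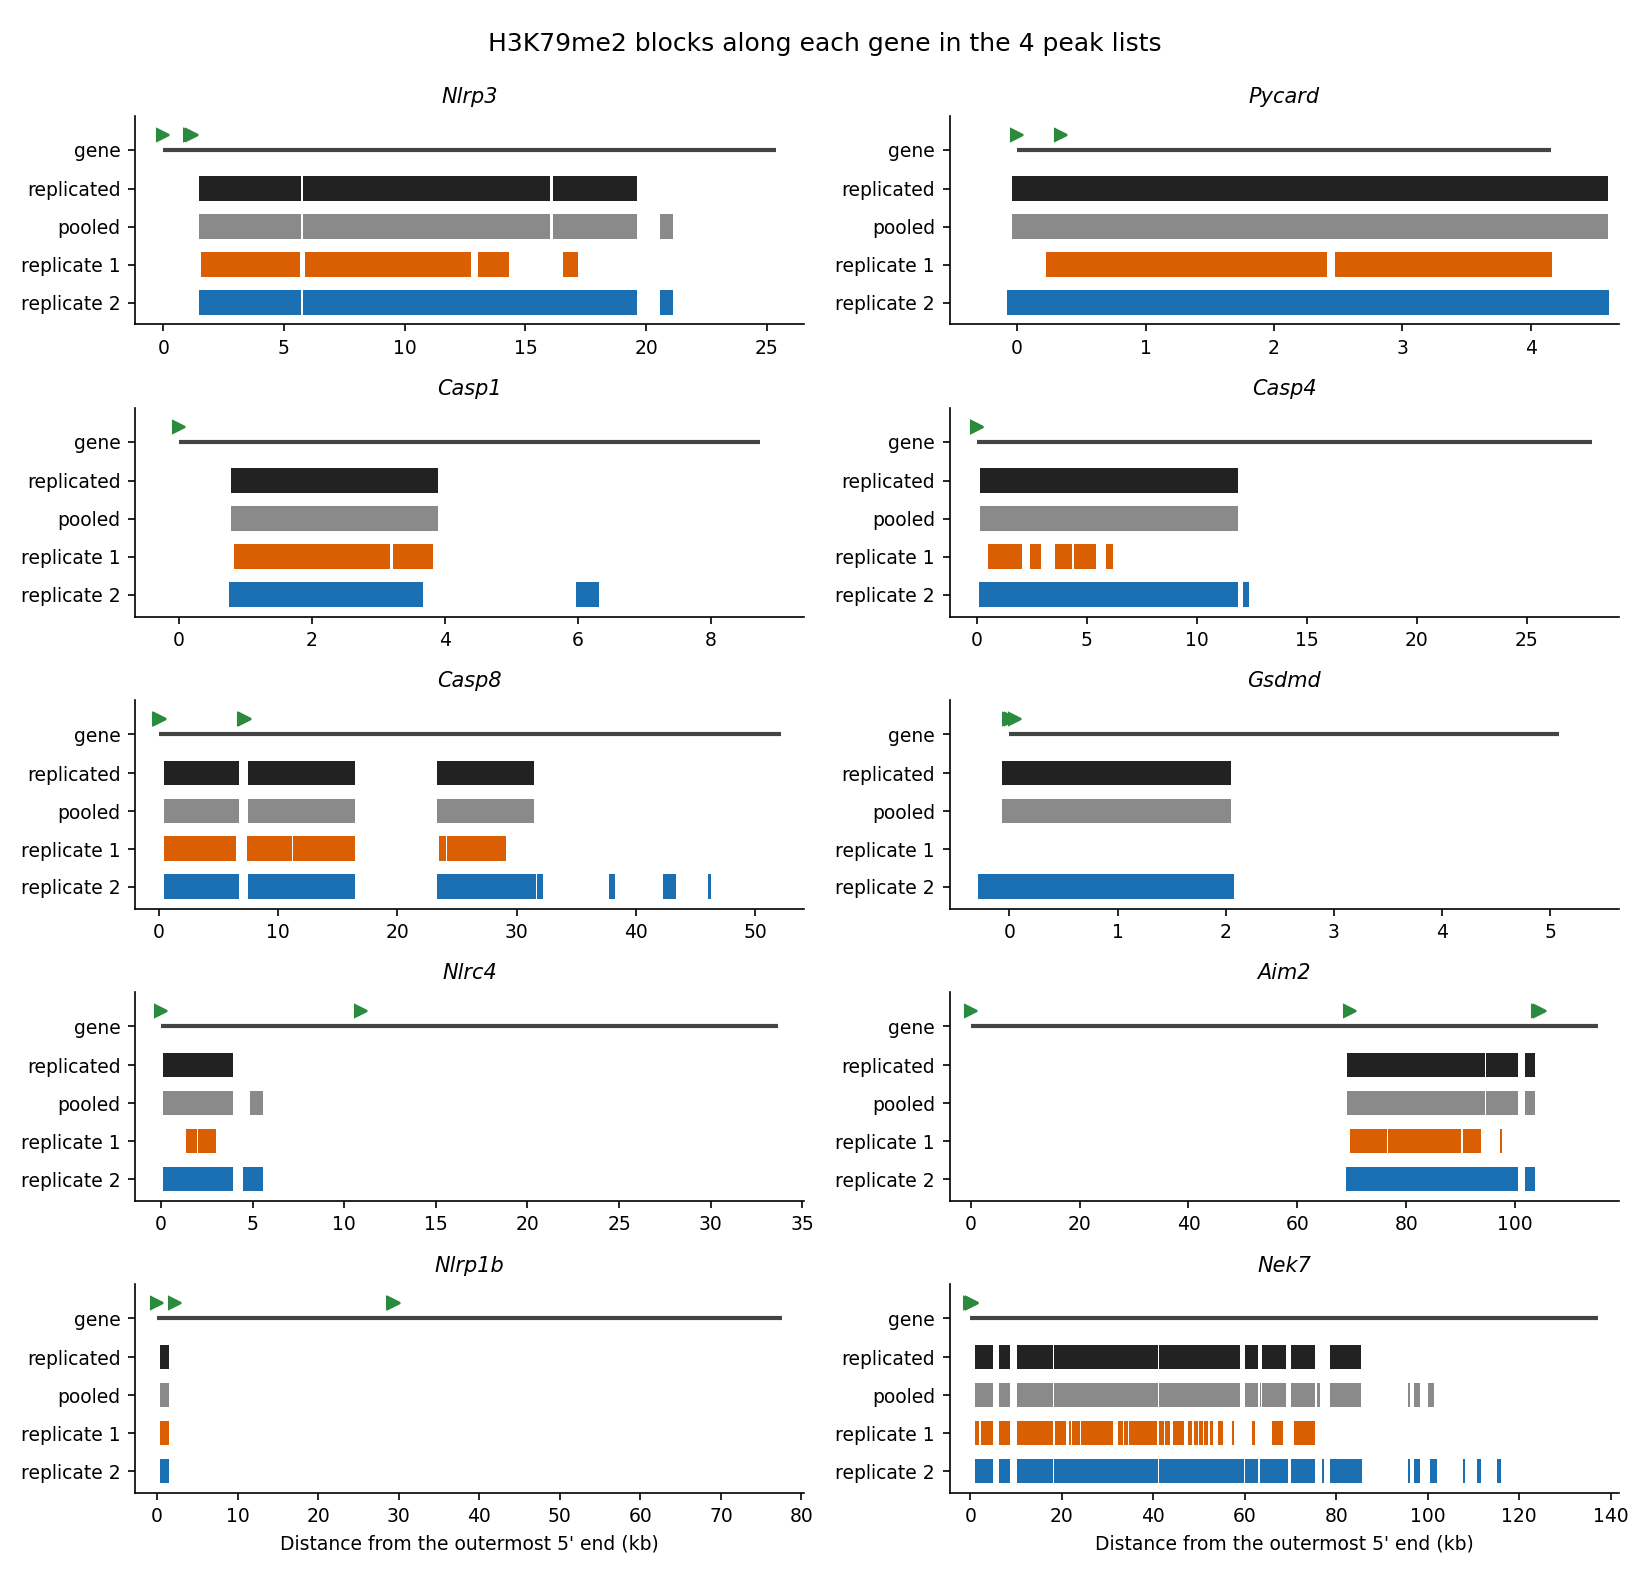
Blocks along each of the 10 genes in the replicated, pooled, replicate 1 and replicate 2 lists (rows), by distance from the outermost annotated 5′ end in kb, each gene on its own scale and read 5′ to 3′ from left to right; green arrowheads are starts of coding transcripts. Blocks lie over the 5′ part of most genes, over all of Pycard and from 69030 bp onward in Aim2, and replicate 1 has no block in Gsdmd.

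Among the caspase genes, Casp1 and Casp4 stand side by side on chromosome 9, on the plus strand and 1562 bp apart. Casp1, the protease that matures IL-1β, spans 8749 bp at chr9:5298517-5307265. Coverage was 3110 bp in the replicated list, 3110 bp in the pooled list, 2946 bp in replicate 1 and 3278 bp in replicate 2. The replicates thus differed little here, with 81.7% of the bases under either list under both. The replicated block ran from 788 bp, in exon 2, to 3897 bp, in intron 3, and took up 35.5% of the gene.

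Casp4 encodes caspase-11, the protease that binds lipopolysaccharide in the cytosol, and spans 27956 bp at chr9:5308828-5336783. The replicated list covered 11765 bp, the pooled list 11765 bp, replicate 1's list 4098 bp and replicate 2's list 12046 bp. Casp4 was therefore one of the genes on which the replicates differed, with 34.0% of the bases under either list under both. In the replicated list 1 unbroken block ran from 132 to 11896 bp. It lay wholly in intron 1 of the main transcript, from 46 bp after exon 1 to 534 bp before the next exon, and touched 0 bp of any annotated exon. Replicate 1 had 5 short blocks within it, which covered 14.7% of the gene, and by fold Casp4 stood at 79.6% of replicate 1's ranked marked genes and at 27.4% of replicate 2's, where a low percentage is a high rank.

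Casp1 and Casp4 were not joined by a single block, since 6545 bp between their blocks lay outside the replicated list. Casp12, the next gene of the cluster, begins 8646 bp after Casp4 and had 0 covered bases in each of the 4 lists.

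**Figure D4:**
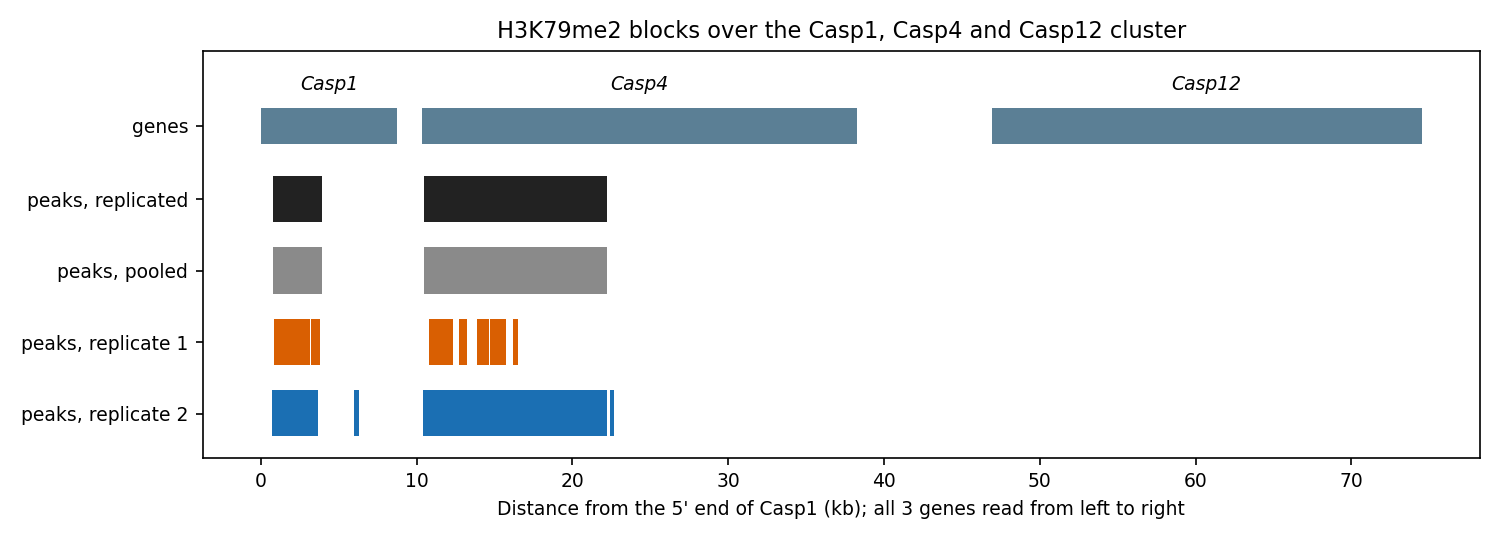
Casp1, Casp4 and Casp12 (top row) and the blocks of the 4 lists, by distance from the 5′ end of Casp1 in kb. Each of Casp1 and Casp4 has its own block in the replicated list, of 3110 and 11765 bp, the 5 short blocks of replicate 1 lie within that of Casp4, and Casp12 has none.

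Casp8, the initiator of death receptor apoptosis that can also cleave gasdermin D, spans 52130 bp on the plus strand at chr1:58795374-58847503. Coverage was 23389 bp in the replicated list, 23389 bp in the pooled list, 20477 bp in replicate 1 and 25823 bp in replicate 2. Casp8 ranked 964th of 6658 marked genes by fold in the replicated list and 341st of 5975 in replicate 1. In both lists this was the highest rank among those of the 10 genes that were ranked. Only marked genes have a rank, so Aim2 had none in any list and Gsdmd none in replicate 1. The first Aim2 block of replicate 1, far from the outermost 5′ end, had a fold of 17.9, beside 17.7 in the first 3 kb of Casp8. The 3 blocks of Casp8 began 479, 7475 and 23314 bp after the 5′ end and measured 6217, 9000 and 8172 bp. The first block also spans Gm37760, a transcript of the same strand that is still to be experimentally tested. Gm37760 had 3841 bp covered in each of the 4 lists, and the peaks do not tell it apart from Casp8. The second block, which had the highest fold of any block in the 10 genes (32.7, against 22.5 for the first and 11.4 for the third), began 347 bp after a further start at 58802502, the only RefSeq start listed for Casp8. After it 6839 bp were uncovered before the third block, which ended in intron 2. Replicate 2 had 4 further short blocks, the last ending 46314 bp into the gene, and replicate 1 had none beyond 29140 bp.

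Gsdmd encodes gasdermin D, the protein whose cleaved form makes the membrane pores of pyroptosis. It spans 5082 bp on the plus strand at chr15:75862327-75867408. Coverage was 2051 bp in the replicated list, 2051 bp in the pooled list, 0 bp in replicate 1 and 2078 bp in replicate 2. The mark at Gsdmd was thus seen in 1 of the 2 replicates' own lists, although the replicated list holds it. The same was so for 532 of the 6658 marked genes (7.99%), which had no base under replicate 1's list. The block ran from 67 bp before the 5′ end to 2050 bp, into exon 3, and covered 40.4% of the gene. In replicate 2, where the block began 292 bp before the 5′ end, the fold was 12.4 and Gsdmd stood at 53.5% of the ranked marked genes.

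Over the 10 genes together, 175235 bp lay under the replicated list, 121898 bp under replicate 1's list and 188247 bp under replicate 2's. Of the bases under either replicate, 64.5% were under both, against 55.3% over all coding genes and 58.0% over marked genes. Almost all of replicate 1's bases in the 10 genes, 99.8%, were also under replicate 2's list, as were 99.3% over all coding genes. All 51 blocks of replicate 1 in these genes shared a base with a block of replicate 2, and 22 of 40 blocks of replicate 2 had a base under replicate 1. Blocks were not counted over all coding genes, so these counts have no share to stand beside. By gene, the share of bases under both was highest in Nlrp1b (94.3%), Pycard (93.0%), Casp1 (81.7%) and Casp8 (78.6%). It was 72.4% in Aim2, 69.3% in Nlrp3 and 61.5% in Nek7, and lowest in Casp4 (34.0%), Nlrc4 (31.7%) and Gsdmd (0%). Replicate 1's list was the smaller over the whole genome too, and the part this plays in the gaps at Gsdmd, Nlrc4 and Casp4 was not tested.

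In 9 of the 10 genes the covered bases were more often intronic than the gene was, as in 80.2% of the 7486 coding genes with a covered base, so this was common to most covered genes. In Gsdmd 67.2% of the covered bases and 53.2% of the length were intronic, in Casp1 90.2% and 82.9%, in Nlrc4 98.7% and 85.7%. Casp8 (98.1% and 94.5%), Aim2 (98.6% and 97.0%) and Nlrp3 (84.9% and 84.0%) differed less. Pycard, covered over its whole length, had 8.65% for both.

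The genes that act around these 10 were described by role, in 9 lists of 101 symbols, of which 100 were found among the coding genes. In the replicated list 55 of the 100 were marked, in replicate 1 48 and in replicate 2 66, where the shares of all coding genes were 30.3%, 27.2% and 35.6%. No base was covered in 38 of them.

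The other sensors were marked in 4 of 16 cases in the replicated list, a share of 25.0%, near that of all coding genes. Nlrc5, a regulator of MHC class I genes, had 20776 bp covered, Nod2, which senses muramyl dipeptide, 6207 bp, the DNA-binding Ifi204 5686 bp, and Naip2, which binds the rod protein of bacterial secretion systems upstream of NLRC4, 4721 bp. Nlrp1a, Nlrp6 and Nlrp10 had 0 covered bases in each list. The count rested on the list used: 9 of 16 were marked in the pooled list and in replicate 2's, above the shares of all coding genes in those lists (34.3% and 35.6%), and 3 in replicate 1's. Mefv, which encodes pyrin, was named after its values were seen: it had 4006 bp in replicate 2 and 0 in replicate 1 and in the replicated list.

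Of the other caspases, 3 of 7 (42.9%) were marked in the replicated list, 2 in replicate 1 and 4 in replicate 2. The shares of all coding genes were 30.3%, 27.2% and 35.6%. Among those marked in the replicated list, Casp9, the initiator caspase of the mitochondrial pathway of apoptosis, had 4031 bp covered and overlaps 2 other coding genes. Casp2 had 2407 bp. Casp6 and Casp12 had 0 covered bases in each list. Among the other gasdermins and the genes of membrane rupture 1 of 10 was marked, in the replicated list and in each replicate. This was Ninj1, which encodes the protein that ruptures the membrane of dying cells, with 8043 bp or 91.8% of its length covered. Gsdma, Gsdma2 and Gsdma3 had 0 covered bases in each list.

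The cytokines and their inhibitors were marked in 1 of 7 cases in the replicated list, 0 in replicate 1 and 2 in replicate 2. Il18 had 1014 bp under the replicated list, 0 in replicate 1, and overlaps 2 other coding genes. Il1a, Il1b and Il33 had 0 covered bases in each of the 4 lists. Casp1 and Pycard, by contrast, were marked in each of the 4 lists, so that peaks were called over the gene of the protease that matures IL-1β and none over Il1b itself.

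Of the ion channels and triggers that act before NLRP3, 10 of 12 were marked in the replicated list, 9 in replicate 1 and 10 in replicate 2. Kcnk13, a potassium channel, had 87954 bp covered (89.6% of its length), the chloride channel gene Clic4 52898 bp (89.9%), the mitochondrial channel gene Vdac1 13898 bp, and Lrrc8a, of the volume-regulated anion channel and overlapping 1 other coding gene, 11545 bp. Vdac2 and Hk1, the unmarked ones, had 14007 and 27718 bp covered and were marked at the 5′ end of another coding transcript; Vdac2 overlaps 1 other coding gene. Of the regulators of assembly 13 of 17 were marked in the replicated list, 12 in replicate 1 and 13 in replicate 2. Those of the replicated list included the kinase gene Pkn2 with 43342 bp covered, Pstpip1, whose product binds pyrin, with 26343 bp, and the ubiquitin ligase gene Ube4b with 23129 bp. Trim31 and Hdac6 had 0 covered bases, and Fbxl2, which overlaps 1 other coding gene, was unmarked with 7218 bp covered.

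In death signalling with caspase-8, 10 of 13 genes were marked in the replicated list, 8 in replicate 1 and 11 in replicate 2. Cflar, which encodes the caspase-8 regulator cFLIP, had 29761 bp covered, the ubiquitin ligase genes Birc3 and Birc2 13039 and 10595 bp, and the kinase gene Map3k7 12297 bp. Birc2 had 0 bp in replicate 1. Ripk3, the kinase of necroptosis, had 0 covered bases in each list, Fadd, the adaptor of caspase-8, had 2269 bp in replicate 2's list and 0 in the replicated one, and Xiap was unmarked with 23964 bp covered.

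The list for ESCRT-III, which repairs membranes holed by gasdermin D, also holds genes of proteins that act with ESCRT-III. Of this list 8 of 9 genes were marked in the replicated list and in each replicate. Pdcd6ip had 25076 bp covered, Chmp3 13065 bp, Chmp2b 11922 bp and Vps4b 11348 bp. The unmarked one, Chmp4b, had 35793 bp covered (83.1% of its length) and was marked if the 5′ end of another coding transcript was used. The list for interferon-induced bacterial lysis, which feeds caspase-11 and AIM2, holds transcription factor genes besides GTPase genes. Of its genes, 5 of 9 were marked in the replicated list and in replicate 1, and 8 of 9 in replicate 2. The transcription factor genes Irf2, Irf8 and Irf1 had 71365, 15040 and 6712 bp covered, and the GTPase genes Irgm2 and Irgm1 10485 and 5862 bp; Irf8, Irf1 and Irgm2 each overlap 1 other coding gene. The guanylate-binding protein genes Gbp2, Gbp3 and Gbp5 had 0 bp in the replicated list and in replicate 1, and 1076, 2136 and 3407 bp in replicate 2.

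**Figure D5:**
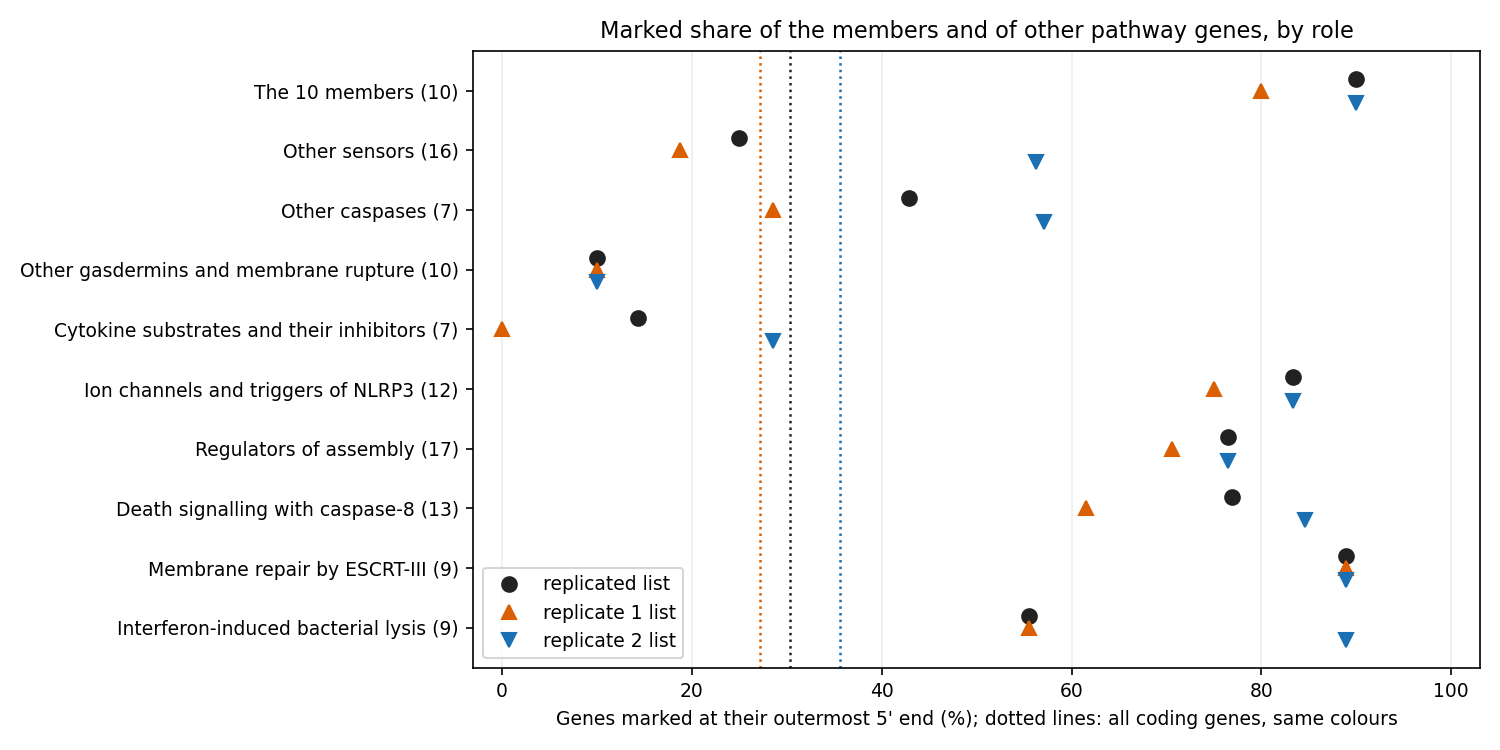
Share of genes marked at their outermost 5′ end, in percent, for the 10 genes and for each role list (number of genes found in parentheses), in the replicated list (circles), replicate 1 (upward triangles) and replicate 2 (downward triangles); dotted lines are the shares of all coding genes. The 10 genes stand at 90.0%, the ESCRT-III list at 88.9% and the gasdermin list at 10.0% in the replicated list, and the sensor and interferon lists differ most between the replicates.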

How the data were processed

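H3K79me2 ChIP-seq peaks of 2 replicates of unstimulated macrophages were used in 4 deposited lists on mm10. Per the labels' file notes, these were called on each replicate, on the pooled reads and as a list derived from both replicates. Aligner, peak caller, thresholds and the way the replicated list was derived were not given in the sources used here. The fold of each peak over the control was deposited by the authors and was used only to rank and filter within a list. The deposited −log10 q-value of each peak is also the authors' value. Over the blocks of the 10 genes in the replicated list it was at least 18.7. The deposited display score and the deposited −log10 p were not used.

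Touching peaks of a list were merged and compared with GENCODE M21 genes (GRCm38) in Python 3.11.15 with numpy 2.4.6. Genome sequence was read with pysam 0.24.0 and samtools 1.23.1 and figures were drawn with matplotlib 3.10.9. The code was tested on simulated data: for 2418 genes of chromosomes 1 and 9, of which 200 were given a peak, covered lengths differed from a count over single bases in 0 genes.

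The 10 genes and the role lists were chosen with earlier results of these data known, so counts stand beside the share of all coding genes and no test was made. With 1 group there was no comparison of conditions. From each role list the text names up to 4 marked genes with the most covered bases, every marked gene where 5 or fewer were marked, and up to 3 unmarked genes in list order. Some genes that it takes are not reported here. Mefv, Nlrp1c-ps and the overlapping non-coding genes fall outside the rule and were named after their values were seen. Irgb10 was not matched by symbol to a coding gene and is not analysed here. Alternatives changed the peak list, the fold of the peaks kept, the minimum covered bases (1000 or 1 bp), the window (5 kb), the 5′ end and the overlap that counts as shared (50% of the shorter block).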

Additional observations from a re-analysis of the deposited data

How the results depend on the processing

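Leaving out a replicate here meant using the other replicate's own list, and no list was derived anew. In replicate 2's list 9 of the 10 genes were marked (35.6% of all coding genes) and 10 had a covered base (39.7%). In replicate 1's list 8 were marked (27.2%) and 9 had a covered base (31.0%), with Gsdmd lost. The summed covered bases were 121898 in replicate 1's list and 188247 in replicate 2's, against 175235 in the replicated list. The cause of the lower value was not tested. Of the other pathway genes, 48 to 66 were marked, against 55. With the pooled list 9 of the 10 genes and 66 of the pathway genes were marked, where 34.3% of all coding genes were. When peaks below the list's median fold were dropped, 8 of the 10 were marked (22.3% of all coding genes), with Nlrp1b lost, and 42 of the pathway genes. A minimum of 1000 bp, a minimum of 1 bp and a window of 5 kb each left 9 of 10 marked. The shares of all coding genes under these rules were 28.7%, 30.7% and 31.1%. Any coding transcript's 5′ end gave 10 (32.7%). The share of bases under both replicates went from 64.5% to 56.5% when each replicate's peaks below its median fold were dropped. All 51 blocks of replicate 1 were still shared at 50% of the shorter block, again without a count over all coding genes. Around the RefSeq starts, an alternative chosen after seeing the data, 1 of 9 genes with such a start was CpG-rich (Nek7), against 0 of 10 around the outermost 5′ ends. No paired analysis was possible because there is 1 group. Depth is unknown, so a gene with no peak is not shown to lack the modification, and with 2 replicates the spread between them has no estimate beyond their difference.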
